A study of Mus musculus with 12 samples.

Results

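Erythroid and globin genes were examined in megakaryocytes (MKs), the cells that shed platelets, sorted from the bone marrow (BM) and spleen of mice. The genes were chosen as a list of 9: the 4 adult globins Hba-a1, Hba-a2, Hbb-bs and Hbb-bt, the heme synthesis enzyme Alas2, the transcription factor Klf1, the membrane protein Slc4a1, the erythropoietin receptor Epor and 1 more gene. They were matched by symbol to the 55536 genes of the count table. The match found 8 of the 9, and the ninth was not analysed here.

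All mice were adult Pf4-TdTomato animals on the C57BL/6 strain. The study used males and females, but the sex of the mice behind each library is not given. In these animals Pf4-Cre switches on a red fluorescent protein from the Rosa26 locus. Cells of the MK lineage and any descendants of a cell that once used the Pf4 promoter are thus marked. The mice received saline or cecal slurry (CS), intestinal content that causes a sepsis of many bacteria, and cells were taken on day 5. This gave 4 groups, saline and sepsis for either tissue, with 3 libraries in each, and every library was made from 300 cells. The gate kept Tomato-positive cells carrying CD45, CD41 and CD42b and removed those stained for NK1.1, CD3, CD11b, F4/80 or B220, a set in which the study's methods name no red cell antigen, and red blood cells had been lysed beforehand.

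MKs and red cells descend from a shared precursor, the MK-erythrocyte progenitor, and both lineages use the factors GATA1 and TAL1. In the red cell branch, erythropoietin binds its receptor on early cells, KLF1 switches on the adult beta globin genes and many membrane genes, and the cell then fills with alpha and beta globin chains that carry heme. Globin RNA is among the most abundant RNAs of reticulocytes, the young red cells of blood.

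Total counts ranged from 7756762 to 27386184 per library. Levels are given in CPM, counts per 1000000 of the library after scaling with edgeR's TMM factors (0.713 to 1.43). A count of 0 has an approximate 95% upper limit of 3 expected counts. This limit corresponds to 0.105 to 0.406 CPM depending on the library and covers counting error only. Summed over 12 genes of MKs and platelets, expression lay between 11977 and 48195 CPM in BM and between 1226 and 3598 CPM in the spleen. In the spleen the lists of 8 B cell and 6 plasma cell genes summed to between 5131 and 32491 CPM and between 7463 and 80709 CPM, against 74.2 to 593 CPM and 1479 to 4690 CPM in BM. The 7 T cell genes summed to between 7.57 and 89.8 CPM in BM and 129 and 1720.5 CPM in spleen, and the 6 basophil and mast cell genes to between 2687 and 28667 CPM and between 40.6 and 4409 CPM. The part of these cells in the results was not tested. Splenic saline replicate 3 stood apart in the globins, and results that rest on it are given with and without it.

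The erythropoietin receptor gene Epor, through which erythropoietin keeps early red cells alive, was detected in every BM library and almost nowhere in the spleen. In BM MKs it had 8.76, 6.16 and 6.78 CPM in the 3 saline libraries (102, 62 and 63 counts) and 17.3, 9.95 and 4.18 CPM in the 3 sepsis libraries (265, 117 and 119 counts). In splenic MKs the counts were 0, 1 and 1 after saline and 0, 0 and 1 after sepsis. Every BM library lay above every splenic library, which 2.56% of the 20263 genes tested also did. The ratio of the summed counts, scaled to library size, was 106 after saline (95% counting interval 28.9 to 878) and 349 after sepsis (62.3 to 13794). These intervals cover counting error only, and the splenic sums behind them are 2 and 1 counts.

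In edgeR's quasi-likelihood test, Epor had a log2 fold change of BM over spleen of 6.59 (SE 2.30, unadjusted p = 0.00994, Benjamini-Hochberg adjusted p = 0.242) after saline and 8.03 (SE 2.45, unadjusted p = 0.00397, adjusted p = 0.132) after sepsis. Neither passed the threshold, and the sizes depend on the small count that the model adds to libraries at 0. DESeq2 called it in both comparisons (adjusted p = 0.000633 and 5.51e-06), and limma-voom after sepsis (adjusted p = 0.0110). Averaged over both treatments, a comparison chosen after the data were seen, Epor was higher in BM by 7.31 on the log2 scale (SE 1.68, adjusted p = 0.0131 in edgeR), a comparison in which 4.75% of genes were called and 2.07% were called higher in BM. Without BM sepsis replicate 1 the averaged difference was not called (7.05, adjusted p = 0.0760). Sepsis and saline libraries overlapped in both tissues. The MK list moved with Epor between tissues, and in bulk libraries fewer cells of a type and less RNA per cell cannot be told apart.

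Epor (ENSMUSG00000006235) lies on the minus strand of chromosome 9, from 21958897 to 21963506 in the GENCODE annotation of GRCm38. Its promoter is shown because Epor was the gene of the list that separated the tissues, and those of Klf1 and Hba-a2 are shown for comparison. The sequences are RefSeq's (GRCm38.p6), 5′ to 3′ on the gene's strand, from 150 bases before the RefSeq start to the base before the first annotated exon of a protein-coding transcript or before the RefSeq start. Capitals mark matches, on either strand, to a GATA motif (AGATAA or TGATAA), a KLF motif (CCNCNCCC, where N is any base), a CCAAT box (CCAAT) or a TATA box (ATATAA). Matches of the KLF motif overlap each other in the runs of C.
Epor, chr9:21963577-21963726, minus strand: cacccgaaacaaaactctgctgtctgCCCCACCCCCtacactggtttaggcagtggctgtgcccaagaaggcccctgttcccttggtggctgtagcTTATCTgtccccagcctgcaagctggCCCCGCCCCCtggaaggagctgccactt
Klf1, chr8:84901832-84901927, plus strand: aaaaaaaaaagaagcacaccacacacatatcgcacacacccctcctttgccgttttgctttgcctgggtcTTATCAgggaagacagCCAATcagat
Hba-a2, chr11:32296342-32296488, plus strand: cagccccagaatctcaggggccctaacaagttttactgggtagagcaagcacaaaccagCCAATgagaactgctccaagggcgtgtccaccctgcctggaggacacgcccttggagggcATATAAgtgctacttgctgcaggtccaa

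Epor had 1 GATA match, 54 to 49 bases before the RefSeq start, read on the strand opposite to the gene's own. It also had a pair of KLF matches at each of the 2 runs of C. Klf1 had a GATA match and a CCAAT box, and Hba-a2 had a CCAAT box and a TATA box. Of all 32851 mouse promoters in the same table, 9.65% held a GATA match, 38.1% a KLF match, 24.5% a CCAAT box and 5.35% a TATA box in the same 150 bases. These matches describe letters, not sites in use. Promoter entries were found for 7 of the 8 matched genes.

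**Figure D1:**
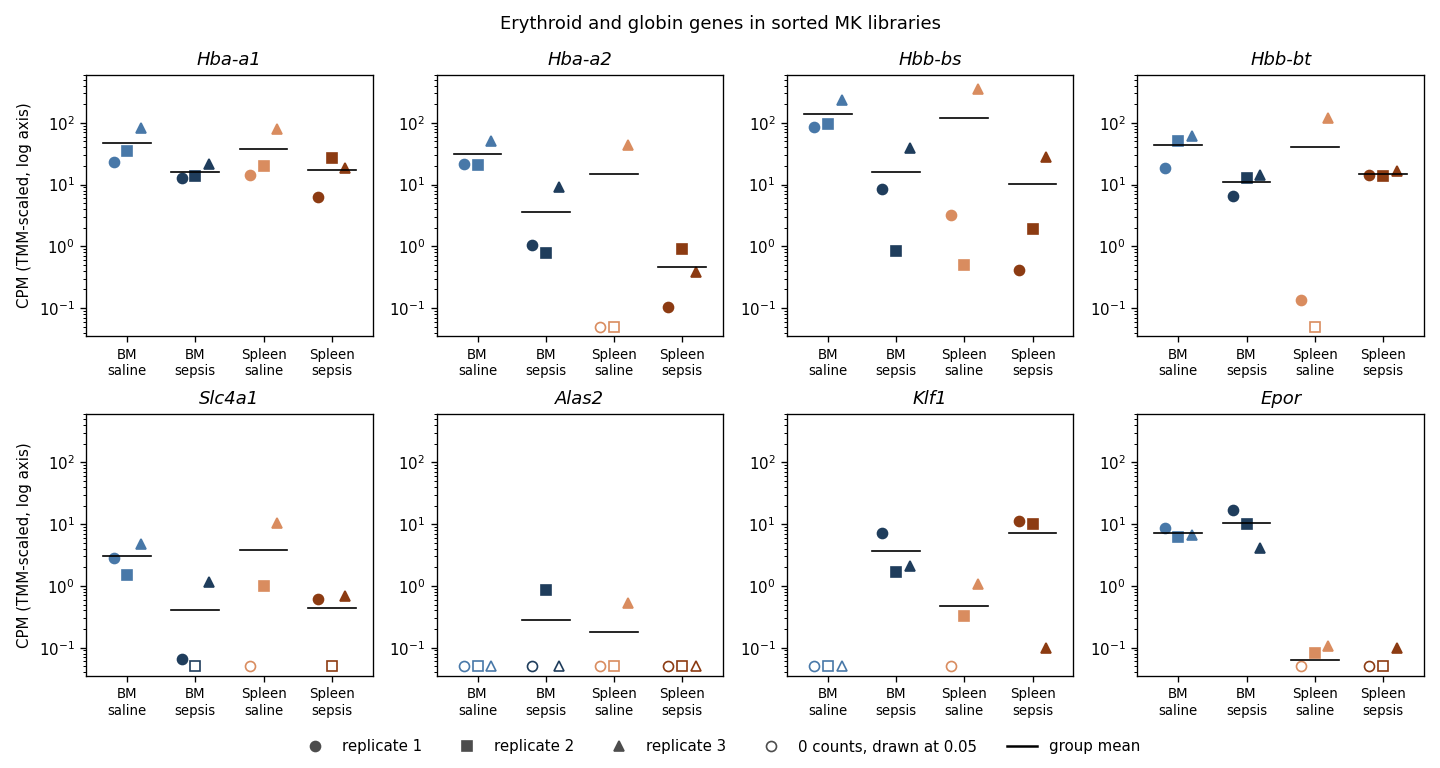
CPM of the 8 genes (log axes) in the 12 libraries, with 1 point per library, its shape giving the replicate, and a black line at the group mean; open points are libraries with 0 counts, drawn at 0.05 CPM. Epor is present in all 6 BM libraries and at 1 count or fewer in the 6 splenic libraries, Klf1 is at 0 in the 3 BM saline libraries, and splenic saline replicate 3 (triangle) has the highest Hbb-bs value at 357 CPM.

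The 4 adult globins made up a small share of the RNA in every library. Summed, they took between 0.00130% and 0.0511% of the raw counts, the most in BM saline replicate 3. On the TMM-scaled measure they held 17.7 to 600 CPM, the most in splenic saline replicate 3, where they took 0.0484% of the raw counts. BM saline libraries held 148, 204 and 426 CPM and BM sepsis libraries 28.6, 28.1 and 83.4 CPM. Splenic saline libraries held 17.7, 20.7 and 600 CPM and splenic sepsis libraries 21.2, 43.7 and 64.4 CPM. All BM sepsis libraries were thus below all BM saline libraries, and in the spleen 1 saline library stood far above the other 5.

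In BM MKs each of the 4 globin genes was lower in all 3 sepsis libraries than in all 3 saline libraries. Hbb-bs, which encodes an adult beta chain (ENSMUSG00000052305, chromosome 7, 103826534 to 103828096, minus strand), had 84.7, 97.2 and 232 CPM after saline and 8.41, 0.850 and 39.1 CPM after sepsis. Hbb-bt, the other adult beta gene (ENSMUSG00000073940, chromosome 7, 103812524 to 103813996, minus strand), had 18.6, 51.5 and 62.2 CPM after saline and 6.52, 12.8 and 14.0 CPM after sepsis. The beta genes thus shared a direction, with a wider gap between groups for Hbb-bs.

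For the alpha genes, Hba-a1 (ENSMUSG00000069919, chromosome 11, 32283511 to 32284465, plus strand) had 23.5, 34.9 and 81.7 CPM after saline and 12.6, 13.7 and 21.2 CPM after sepsis. Hba-a2 (ENSMUSG00000069917, chromosome 11, 32296489 to 32297298, plus strand) had 21.4, 20.6 and 50.3 CPM after saline and 1.04, 0.765 and 9.02 CPM after sepsis. Both alpha genes again had groups that did not overlap, and BM saline replicate 3 was the highest library for all 4 globins of its group.

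Together with Slc4a1, 5 of the 7 genes tested had all sepsis libraries below all saline libraries in BM, as did 4.16% of all genes tested, and these 5 are not independent because the globin copies share reads. None of them was called. The log2 fold changes of sepsis over saline were -1.56 (SE 0.89) for Hba-a1, -3.08 (SE 1.90) for Hba-a2, -3.09 (SE 1.67) for Hbb-bs and -1.99 (SE 1.53) for Hbb-bt, each with an adjusted p of 1 in edgeR. Over the 7 genes the median was -1.99, against -0.08 over all genes. In this comparison edgeR called 0 of 20263 genes (717 had an unadjusted p under 0.05), so the background was 0%, limma-voom called 0 and DESeq2 called 221. DESeq2, fitted without the expression filter, gave an adjusted p for 6 of the 8 matched genes here and for 5 in the other comparisons. It called 0 of the 6 here, and gave no adjusted p here for Hba-a2 or Hbb-bs. The 8 neutrophil genes moved with sepsis in the same BM libraries, from 65.7 to 274 CPM after saline to 2272 to 16947 CPM after sepsis. In the spleen they were high in replicate 1 of either treatment. They summed there to 21565, 373 and 339 CPM after saline and 10657, 66.7 and 190 CPM after sepsis. Their part in the globin values was not tested.

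In splenic MKs the globins were set by 1 library. Hbb-bs had 3.24, 0.495 and 357 CPM in the 3 saline libraries and 0.411, 1.90 and 28.4 CPM in the 3 sepsis libraries. Hbb-bt had 0.135, 0 and 120 CPM after saline and 14.4, 14.0 and 16.9 CPM after sepsis. Hba-a2 had 0, 0 and 43.9 CPM after saline and 0.103, 0.896 and 0.388 CPM after sepsis. In each case saline replicate 3 held the highest value. The other saline libraries lay at or near 0 for Hba-a2 and Hbb-bt, and had 24 and 6 counts for Hbb-bs. The Hbb-bt values after sepsis were close together. Hba-a1 was less uneven, with 14.3, 20.2 and 78.6 CPM after saline and 6.32, 26.9 and 18.7 CPM after sepsis.

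Splenic saline replicate 3 also stood apart in the red cell gene Hemgn and in genes of the spleen's red pulp, where macrophages take up aged red cells. Hemgn, an erythroid nuclear protein gene, had 52.2 CPM in that library and between 0.154 and 0.873 CPM in the other 5 splenic libraries, but it also had 55.2 to 123 CPM in the 6 BM libraries, those of sepsis included. The MK and platelet genes summed to 3598 CPM in splenic saline replicate 3, against 1308 and 1370.2 CPM in the other saline libraries of the spleen. The macrophage genes Vcam1 and Hmox1, the latter encoding the enzyme that breaks down heme, had 70.8 and 41.6 CPM there, against at most 7.01 and 0.925 CPM in the other splenic libraries. The 8 red pulp macrophage genes summed to 204 CPM in that library, 34.6 and 44.7 CPM in the other saline libraries of the spleen, 0.776 to 21.6 CPM in those of sepsis and 12.2 to 42.8 CPM in BM. The part of these cells in the globin values was not tested. The 3 genes named here were chosen after their values were seen.

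With all 12 libraries, no globin differed between BM and spleen after saline in edgeR. Of the 7 genes tested 0 were called and 1, Epor, had an unadjusted p under 0.05, beside a background of 1.25% of genes called; DESeq2 called 1 and limma-voom 0. The log2 fold changes were 0.31 (SE 0.87) for Hba-a1, 1.07 (SE 1.77) for Hba-a2, 0.20 (SE 1.55) for Hbb-bs and 0.14 (SE 1.48) for Hbb-bt, with adjusted p between 0.886 and 0.991. Without splenic saline replicate 3, Hba-a2 (11.7, adjusted p = 0.0291) and Hbb-bt (9.41, adjusted p = 0.00402) were called higher in BM, and Hbb-bs was not (6.25, adjusted p = 0.0557). The value for Hba-a2 was fitted against libraries at 0 counts and depends on the small count the model adds. Splenic saline libraries enter both this comparison and that of sepsis with saline in the spleen, so the same library moves both.

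After sepsis, 0 of the 7 genes were called between tissues in edgeR, with 1, Epor, at an unadjusted p under 0.05 and a background of 1.78%; DESeq2 and limma-voom each called 1. The difference for Hba-a2 was 2.98 on the log2 scale (SE 1.93, adjusted p = 0.492), larger than those of the other 3 globins, and its libraries overlapped by 1 BM value of 0.765 CPM against a splenic high of 0.896 CPM.

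The effect of sepsis in the spleen was likewise not called for any of the 7 genes (1, Hba-a2, at an unadjusted p under 0.05; background 0.158%; 0 in DESeq2 and in limma-voom). The log2 fold changes were -1.12 (SE 0.88) for Hba-a1, -4.99 (SE 2.10) for Hba-a2, -3.56 (SE 1.71) for Hbb-bs and -1.41 (SE 1.51) for Hbb-bt, with adjusted p from 0.382 to 0.802. Leaving out splenic saline replicate 3 turned all 4 directions, to 0.032, 5.59, 2.47 and 7.84, and Hbb-bt was then called (adjusted p = 0.0273). With no expression filter Hbb-bs was called lower after sepsis (-3.58, adjusted p = 0.0188). The tissue by sepsis interaction asks whether sepsis acted differently in BM and spleen. In edgeR it called 0 of the 7 genes and 0 of all genes, so the background was 0%. At an unadjusted p under 0.05 were 0 of the 7 and 1556 of all genes. The interaction called 0 of the 7 in limma-voom and 0 of the 5 that had an adjusted p in DESeq2. For Hbb-bt it was -0.58 (SE 2.09, adjusted p = 1) with all libraries and -9.82 (adjusted p = 0.0309) without splenic saline replicate 3.

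**Figure D2:**
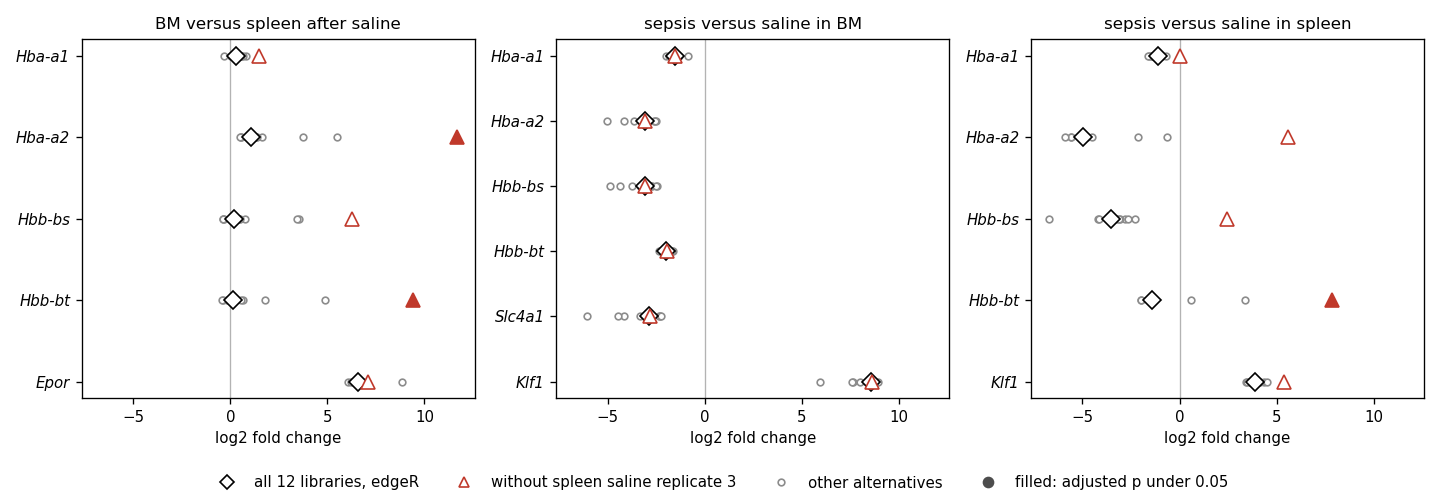
Log2 fold changes of the genes whose values are given, in 3 comparisons; diamonds are the edgeR values with all 12 libraries, triangles those without splenic saline replicate 3 and small circles the other alternatives, filled where the adjusted p was under 0.05. In the left panel Hba-a2 and Hbb-bt move from 1.07 and 0.14 to 11.7 and 9.41 without that library, in the right panel the globins change side, and in the middle panel the globins stay below 0 under every alternative drawn.

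The globin copies share most of their sequence, so the split of reads within a pair is uncertain. The coding sequences of Hba-a1 and Hba-a2 in GENCODE transcripts are 426 bases long without the stop codon and differ at 1 base, and those of Hbb-bs and Hbb-bt are 441 bases long and also differ at 1 base. The stretch around each difference is shown because it is the only place in the coding part where a read can tell the copies apart, with the differing base in capitals. Positions count from 1 at the A of the start codon.
Hba-a1, coding bases 349 to 408: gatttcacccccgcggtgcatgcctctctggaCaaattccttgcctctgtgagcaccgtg
Hba-a2, coding bases 349 to 408: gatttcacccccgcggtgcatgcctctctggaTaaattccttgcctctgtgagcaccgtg
Hbb-bs, coding bases 382 to 441: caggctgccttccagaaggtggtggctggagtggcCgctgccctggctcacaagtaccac
Hbb-bt, coding bases 382 to 441: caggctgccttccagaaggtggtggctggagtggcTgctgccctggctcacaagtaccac

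The differing base is at coding position 381 in the alpha pair and 417 in the beta pair. Over whole transcripts, 67.5% of the windows of 50 bases in Hba-a1 and 86.9% of those in Hba-a2 occurred in the partner, as did 65.8% of those in Hbb-bs and 58.3% of those in Hbb-bt. No window of Alas2, Klf1, Slc4a1 or Epor occurred in a transcript of another gene. How the authors counted reads that match both copies is not given in the sources used here.

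The share of alpha globin counts that fell on Hba-a2 was 47.7%, 37.1% and 38.1% in the BM saline libraries and 7.66%, 5.29% and 29.8% in the BM sepsis libraries. In the spleen it was 0%, 0% and 35.8% after saline and 1.60%, 3.23% and 2.03% after sepsis. The exact Clopper-Pearson 95% interval of the 35.8% in splenic saline replicate 3 was 33.0% to 38.7%, and the 0% of 106 and of 245 counts in the other splenic saline libraries had upper bounds of 3.42% and 1.49%. These bounds cover counting error only, since amplified reads without molecular identifiers are not independent molecules, and replicate libraries differed by more than counting error throughout. The values of BM sepsis replicate 3 and splenic saline replicate 3 were above those of the other libraries of their own groups.

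For the beta pair, Hbb-bt took 18.0%, 34.6% and 21.1% of counts in the BM saline libraries and 43.7%, 93.8% and 26.4% in the BM sepsis libraries. It took 4%, 0% and 25.1% in the splenic saline libraries, the first 2 of them from only 25 and 6 counts, and 97.2%, 88.0% and 37.3% in the splenic sepsis libraries. The values thus varied widely between libraries of the same group.

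**Figure D3:**
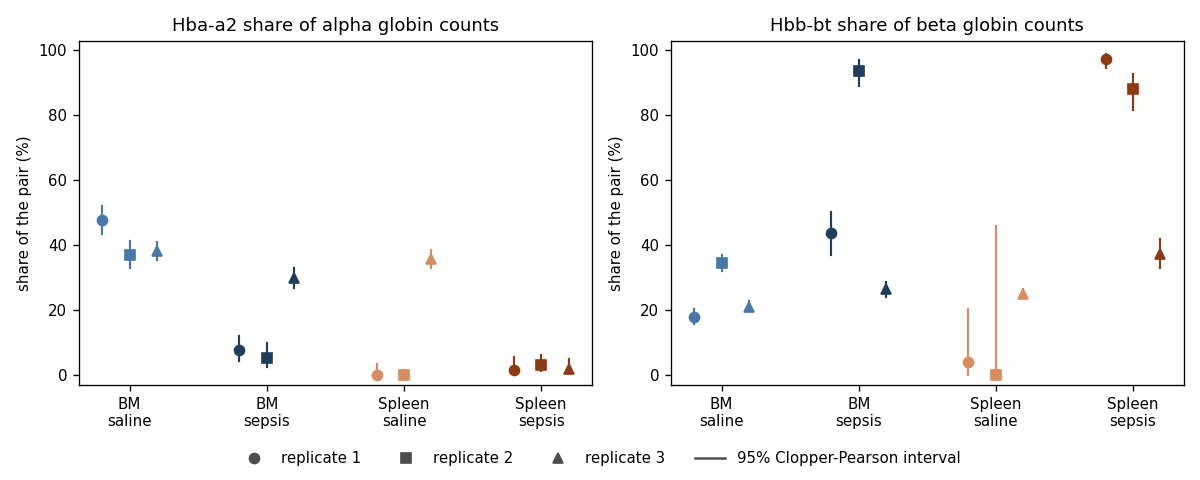
Share of alpha globin counts on Hba-a2 (left) and of beta globin counts on Hbb-bt (right) in each library, in percent, with exact 95% Clopper-Pearson intervals, which cover counting error only, as bars and the replicate given by the shape. On the left the BM saline libraries and splenic saline replicate 3 lie between 35.8% and 47.7% and the splenic sepsis libraries between 1.60% and 3.23%.

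With each copy pair summed to 1 gene before the fit, 0 alpha or beta sums were called in any comparison. Levels per kilobase of exon allow genes to be set side by side within a group. In BM saline MKs the mean was 180 ± 106 CPM per kb (SD, n = 3) for Hbb-bs, 62.8 ± 32.3 for Hbb-bt, 57.5 ± 38.0 for Hba-a1 and 46.1 ± 25.4 for Hba-a2, and the last 3 of these differed from each other by less than their spread. Hbb-bs was above Hbb-bt in all 3 libraries. Epor followed at 3.64 ± 0.683 CPM per kb and Slc4a1 at 0.625 ± 0.345 CPM per kb, both below the globins in all 3 libraries.

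Slc4a1 encodes the anion exchanger band 3 of the red cell membrane (ENSMUSG00000006574, chromosome 11, 102348824 to 102366203, minus strand). Its pattern followed that of the globins at a lower level, with 2.84, 1.49 and 4.85 CPM in the BM saline libraries and 0.0652, 0 and 1.16 CPM in the BM sepsis libraries. In the spleen it had 0, 0.990 and 10.5 CPM after saline and 0.617, 0 and 0.679 CPM after sepsis. The BM groups did not overlap, the splenic groups did, and splenic saline replicate 3 was again the highest of the 12 libraries. The log2 fold change of sepsis over saline in BM was -2.86 (SE 2.71, adjusted p = 1 in edgeR).

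Alas2 encodes the erythroid form of the first enzyme of heme synthesis (ENSMUSG00000025270, chromosome X, 150547375 to 150570638, plus strand). It did not pass the expression filter. It had 10 counts in BM sepsis replicate 2, 5 counts in splenic saline replicate 3 and 0 counts in the other 10 libraries, and 15.5% of its exon bases overlap genes on the opposite strand. It was not detectable at this depth in most libraries, including all 3 BM saline libraries.

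Klf1, the factor that activates adult beta globin, ran opposite to the globins in BM (ENSMUSG00000054191, chromosome 8, 84901928 to 84905291, plus strand). It had 0 counts in all 3 BM saline libraries and 110, 20 and 59 counts (7.17, 1.70 and 2.07 CPM) in the BM sepsis libraries. In the spleen it had 0, 4 and 10 counts after saline (0, 0.330 and 1.07 CPM) and 221, 89 and 1 counts after sepsis (11.4, 9.97 and 0.0971 CPM). In BM every sepsis library was above every saline library, as for 4.79% of genes tested, and in the spleen the groups overlapped through sepsis replicate 3.

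Pooled over the BM sepsis libraries, Klf1 had 189 counts, of which 110 came from replicate 1. Scaled to library size, this pooled sum was at least 35.1-fold that of the BM saline group, taken at 3 counts. The bound allows for counting error in the saline group only, at about 95% confidence, and does not hold for each sepsis library. The fitted log2 fold change of 8.55 (SE 3.16, unadjusted p = 0.0150, adjusted p = 1 in edgeR) is no bound, since 1 side is at 0. In the spleen it was 3.90 (SE 2.59, adjusted p = 0.548). Averaged over tissues, sepsis over saline was 6.23 (SE 2.02, unadjusted p = 0.00674, adjusted p = 0.348 in edgeR), a comparison in which 0.0691% of genes were called, and 0 of the 7 genes were called (4 at an unadjusted p under 0.05, which were Hba-a1, Hba-a2, Hbb-bs and Klf1). DESeq2 called Klf1 there (5.67, adjusted p = 0.00464) and limma-voom called 0 of the 7. In BM the Klf1 and globin values therefore went in opposite directions between the same libraries, and neither difference passed edgeR's threshold.

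The other genes of the red cell pathway were taken from 7 lists, all of whose genes were found in the table. Of the 11 erythroid transcription factors, which MKs share in part, 2 were called higher in BM after saline (Tal1 and Zfpm1), where 0.523% of all genes were, and 0 lower. After sepsis 5 were higher (Tal1, Nfe2, Myb, Gata1 and Gfi1b) and 1 was lower (Bcl11a), against 0.597% and 1.18% of all genes. Gata1 and Gfi1b are named only to complete this count. The list's median log2 fold change of BM over spleen was 1.95 after saline and 2.61 after sepsis, against -0.28 and -0.18 over all genes.

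Tal1, which acts in a complex with GATA1, had 82.6 to 158 CPM in the 6 BM libraries, 10.8 to 21.9 CPM in the spleen after saline and 0.463 to 2.81 CPM after sepsis. Zfpm1, the cofactor of GATA1, had 39.3, 32.4 and 44.7 CPM in BM and 1.22, 0.330 and 0.751 CPM in the spleen after saline. In edgeR this was a difference of 5.67 on the log2 scale (SE 1.11, adjusted p = 0.0122), and limma-voom did not call it (adjusted p = 0.124). Nfe2, needed for platelet release and able to bind globin control regions, had 185, 171 and 155 CPM in BM and 11.7, 4.26 and 8.73 CPM in the spleen after sepsis (4.37, SE 0.62, adjusted p = 0.000607). Myb, a factor of blood progenitors, had 128, 274 and 142 CPM and 17.2, 11.2 and 6.31 CPM in the same groups (3.97, SE 0.63, adjusted p = 0.00176). Bcl11a, which silences fetal and embryonic globin genes and is also needed by B cells, had 24.5, 39.1 and 38.2 CPM in BM and 163, 201 and 157 CPM in the spleen after sepsis (-2.36, SE 0.57, adjusted p = 0.0342). It was named after its values were seen, as the only factor called lower in BM, and 13 of 24 alternatives did not call it. These included leaving out any single library other than splenic saline replicate 2 or splenic sepsis replicate 3, with values from -2.43 to -2.14 and adjusted p up to 0.361. The 8 B cell genes were higher in the same splenic libraries, and their part in the Bcl11a value was not tested.

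Jak2, the kinase that the erythropoietin receptor activates, had 122, 166 and 149 CPM in BM saline libraries and 99.9, 80.9 and 79.5 CPM in BM sepsis libraries, with all sepsis libraries below all saline libraries, as for 4.16% of all genes tested, and was not called. Stat5a, a factor activated by JAK2, had 11.6 to 23.1 CPM and 15.6 to 40.2 CPM in the same groups, which overlapped. Of the 9 erythropoietin signalling genes, 0 were called after saline and 1 after sepsis in edgeR, where 1.25% and 1.78% of all genes were called. Kit, the receptor for stem cell factor, had 52.1, 59.8 and 20.9 CPM in BM sepsis libraries and 2.31, 1.79 and 0.194 CPM in splenic sepsis libraries (4.93, SE 1.23, adjusted p = 0.0436), and 8 of 24 alternatives did not call it, with adjusted p up to 0.165. Among them were the fits without BM sepsis replicate 1 (4.81) or 2 (4.68) and without splenic sepsis replicate 2 (5.12) or 3 (4.44). Of 12 late erythroid and red cell enzyme genes, 11 passed the filter and 1 was called, Hemgn after sepsis. It had 62.7, 123 and 55.2 CPM in BM and 0.154, 0.336 and 0.873 CPM in the spleen (7.48, SE 1.64, adjusted p = 0.0205), groups that lay far apart.

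The remaining lists gave no call in the comparisons within a treatment or within a tissue. Of 13 red cell membrane genes 10 passed the filter, and 0 were called in those comparisons. Averaged over treatments Sptb, which encodes the erythroid beta spectrin, was higher in BM (6.97, SE 1.43, adjusted p = 0.00539), with 6.96 to 39.0 CPM in the 6 BM libraries and at most 0.485 CPM in the 6 splenic ones. Gypc, a glycophorin gene, was also higher (3.42, SE 0.97, adjusted p = 0.0469), a call lost in 9 of 23 alternatives, with adjusted p up to 0.0890. It was lost without BM saline replicate 1 or 3, BM sepsis replicate 1 or 2, splenic saline replicate 3 or splenic sepsis replicate 1 or 3, with values from 3.23 to 3.45. Car1 and Car2 are carbonic anhydrases, and Car1 had 0.859 to 104 CPM in BM and 0 to 10.7 CPM in the spleen. Car2 was called higher in BM in the averaged comparison too (3.36, SE 0.79, adjusted p = 0.0150), as were Hemgn (4.76, adjusted p = 0.00777 in edgeR) and Kit. Of the 11 transcription factors, 7 were called higher in BM there and 1 lower. In that comparison 2.07% of all genes were called higher in BM and 2.68% lower. Pim1, a target of cytokine signalling, was called lower in BM (-2.26, SE 0.61, adjusted p = 0.0359, lost in 9 of 23 alternatives). Without splenic sepsis replicate 3, which had 373 CPM, the value for Pim1 was -1.23 (adjusted p = 0.260), and the call was also lost without BM saline replicate 1 or 2, BM sepsis replicate 1 or 2 or splenic saline replicate 3 (-2.24 to -2.04).

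Heme synthesis and iron supply genes were present in both tissues without a call. All 8 heme synthesis genes passed the filter and summed to between 305 and 372 CPM in BM and between 159 and 315 CPM in the spleen. Alas1, the form of the first enzyme used outside red cells, had 10.2, 8.15 and 9.15 CPM in BM saline libraries and 17.2, 38.3 and 79.3 CPM in BM sepsis libraries. All 8 iron supply genes passed, and Tfrc, the transferrin receptor, had 51.8, 54.7 and 71.4 CPM and 81.0, 145 and 160 CPM in the same groups. Both genes had all sepsis libraries above all saline libraries, as did 4.79% of all genes tested, and neither was called. Alad, the enzyme after the first step of heme synthesis, and Slc25a37, which carries iron into mitochondria, had groups that overlapped, with 44.8 to 65.7 CPM and 11.7 to 53.7 CPM over the 6 BM libraries. In edgeR the 2 lists together had 1 gene at an unadjusted p under 0.05 after saline between tissues and 0 in the comparison of sepsis with saline in BM.

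Of the 6 embryonic and theta globin genes, 1 passed the filter. That gene, Hbb-bh1, an embryonic beta globin, had at most 0.765 CPM in BM and 0, 3.80 and 25.6 CPM in the splenic saline libraries and 0, 46.1 and 0 CPM in the splenic sepsis libraries (0 of 1 called, adjusted p = 0.399 after saline and 0.404 after sepsis). Hba-x and Hbb-y, the embryonic alpha and beta chains, reached at most 5.45 and 2.91 CPM, in single libraries.

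**Figure D4:**
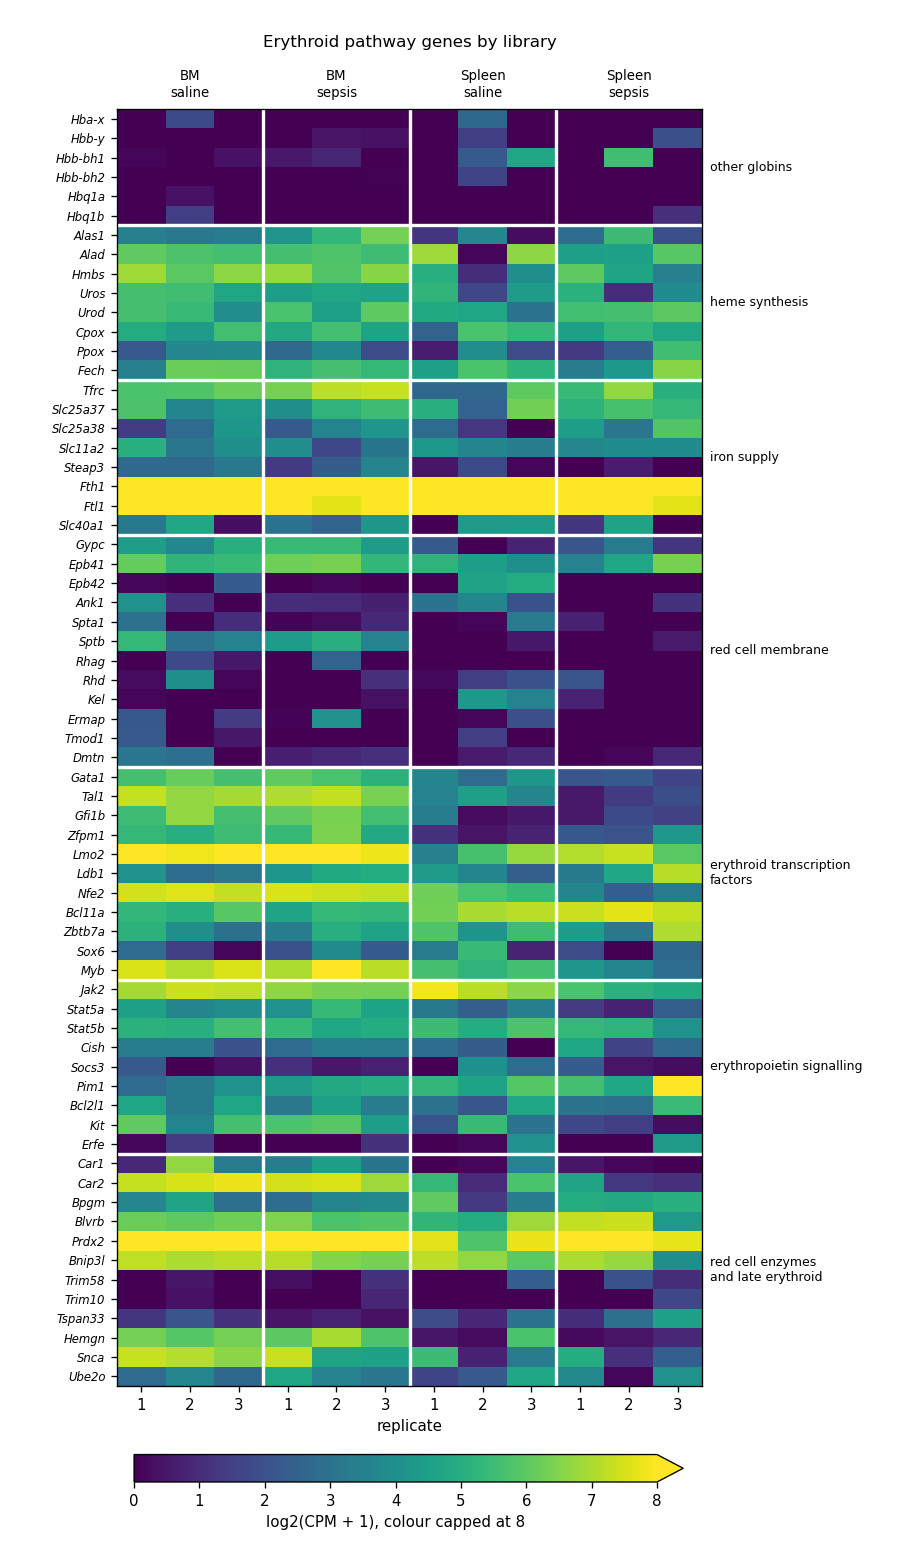
Heat map of log2(CPM + 1) for the genes of the 7 pathway lists (rows; 1 membrane gene is not shown) in the 12 libraries (columns, 3 replicates in each of 4 groups), with the colour capped at 8. The transcription factors Tal1, Nfe2 and Myb are brighter in all 6 BM libraries than in any splenic library, an order that 2.56% of all genes tested had. Some other factors of the list overlap between tissues, and Bcl11a is darker in BM. Hemgn is bright in BM and in splenic saline replicate 3 (52.2 CPM), and the embryonic globins are dark except in single libraries.

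The genes whose pattern was most like that of the globins were looked for among 15104 protein-coding genes outside the lists, by the root mean square difference of centred log2 CPM over the 12 libraries. The nearest to the log2 of the summed globins were Kif2b, Fn3k, Slc18a3, Serpind1 and Mptx2, with differences from 0.878 to 1.0 on the log2 scale, where the globin profile itself had a spread of 1.68. Of these 4 had a mean of 0 CPM in both sepsis groups, so their likeness rests on few counts. For the mean log2 CPM of Klf1 and Slc4a1 the nearest were Ensa, Malsu1, Zfp157, Washc5 and Vrk3 (0.609 to 0.741, against a spread of 1.2). Klf1 and Slc4a1 differed in opposite directions between the BM groups, so this likeness to their mean describes neither gene.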

How the data were processed

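MKs were sorted from BM and spleen, 300 cells per library, and RNA was amplified with the SMART-Seq HT kit and made into libraries with Nextera XT. The authors deposited 1 table of raw counts of reads per gene (12 libraries, 55536 genes). The submitters' processing notes name STAR 2.7.2b, GRCm38, R 3.6.1 and DESeq2 1.26, with no role given. The annotation, strand setting and treatment of reads that match several genes were not found in the notes or methods, so reads from a gene and its antisense partner cannot be told apart. Gene symbols and positions came from GENCODE M21, which held all 55536 identifiers.

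Counts were analyzed with edgeR 4.0.16 in R 4.3.3. Genes were kept by filterByExpr (minimum count 10, 20263 genes), scaled with TMM, fitted with 1 mean per group over all 12 libraries and tested by quasi-likelihood, with Benjamini-Hochberg adjustment over all genes and a threshold of 0.05. The fit left 8 residual degrees of freedom, and the common dispersion of 2.05 is a coefficient of variation of 143%. CPM use the same scaling. SEs were derived from each log2 fold change and its F statistic. DESeq2 1.42.0, limma 3.58.1, other scalings and filters, summed copies, removal of immune segment genes, globins left out of totals, a replicate block, fits of 6 libraries and leaving out each library were alternatives. Random thinning to the smallest total, the averaged comparisons and the alternatives for the genes of the pathway lists were added with the data in view. Scripts were checked on simulated data. Tables and figures used Python 3.11.15, pandas 2.3.3, scipy 1.17.1 and matplotlib 3.10.9.

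The members and lists were chosen with earlier results of these data known. Besides the members, the genes named are, for each pathway list and comparison, at most 3 called genes by smallest p, otherwise the first 2 of the list, and the 5 genes of most similar pattern; exceptions are said where they occur, and the values of 1 gene of the membrane list are not reported here. Replicates are described as independent by the study's methods. Replicates of a group differed by more than counting error (chi-square per degree of freedom 62.2 to 644, Pearson correlation of log2 CPM across genes 0.522 to 0.870).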

Additional observations from a re-analysis of the deposited data

How the results depend on the processing

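The members called by edgeR numbered 0 in the 4 comparisons within a tissue or treatment and in the interaction, and 1 (Epor) in the averaged tissue comparison. DESeq2 called 1 between tissues after saline, 1 after sepsis and 1 for sepsis averaged over tissues, limma-voom called 1 after sepsis, and the fit with no expression filter called 1 for sepsis in the spleen and 1 for sepsis averaged over tissues (Hbb-bs). When each library was left out in turn the count ranged from 0 to 2 between tissues after saline, from 0 to 1 for sepsis in the spleen and for the interaction, and from 0 to 4 for the averaged tissue difference (Hba-a2, Hbb-bs, Hbb-bt and Epor without splenic saline replicate 3, none without BM sepsis replicate 1). For sepsis in BM all 24 alternatives called 0, but DESeq2 gave no adjusted p there for Hba-a2 or Hbb-bs.

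Directions turned for the globins. The difference between tissues after saline ranged, over libraries left out, from -0.34 to 1.48 for Hba-a1, from -0.39 to 6.25 for Hbb-bs and from -0.43 to 9.41 for Hbb-bt, which was also -0.0117 with RLE factors and -0.0114 in DESeq2. Sepsis over saline in the spleen ranged from -1.60 to 0.032 for Hba-a1, from -5.92 to 5.59 for Hba-a2, from -6.73 to 2.47 for Hbb-bs and from -1.99 to 7.84 for Hbb-bt, which was 3.39 in limma-voom. The interaction for Hbb-bt ranged from -9.82 to 0.014. Beyond the libraries left out, whose values show it, the cause was not tested. Deviations from group means were nearly uncorrelated between libraries of the same replicate number (18 correlations, -0.0566 to 0.0447). With 3 libraries a group that differed by more than counting error, this cannot tell whether such libraries share a mouse. The fit with the replicate number as a block turned Hbb-bt for sepsis in the spleen (0.59). It called 0 members within a tissue or treatment and 1 in the averaged tissue comparison, as without the block.

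Counts over all genes depended on the tool. In the order after saline, after sepsis, sepsis in BM, sepsis in spleen, interaction, averaged tissue and averaged sepsis, edgeR called 253, 361, 0, 32, 0, 962 and 14 genes, DESeq2 1064, 1238, 221, 915, 472, 2174 and 665, limma-voom 185, 724, 0, 0, 0, 1517 and 1, and edgeR with no filter 529, 595, 81, 187, 130, 1295 and 171. Leaving out libraries gave 197 to 467, 307 to 512, 0 to 12, 48 to 138, 3 to 48, 810 to 1151 and 31 to 83. Library size alone called 376 genes after saline and 1515 in the averaged tissue comparison, and fits of 6 libraries called 0 for sepsis in the spleen, where the stricter filter called 20. The part of calls higher in BM after saline was 41.9% with TMM, 30.3% with RLE factors and 69.7% with library size alone, and the median of all genes was -0.28, -0.54 and 0.20 on the log2 scale. With library size alone it was 56.3% after sepsis (33.5% with TMM) and 72% averaged over treatments (43.6%), and with RLE factors 26.7% of calls for sepsis in the spleen were higher after sepsis (37.5%) and 18.2% of those averaged over tissues (35.7%). Alas2 and splenic Epor had few or no counts, which limits the precision of their values. Thinning all libraries to equal depth changed no count of members called.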
